A study of Mus musculus with 4 samples.

Results

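DNA replication and mitosis genes encode the machinery that copies the chromosomes and separates them at division. The 40 genes described here were chosen by name, and the peaks counted for each were those with a summit within 1 kb of an annotated start site of the gene in GENCODE vM21. Chromatin accessibility had been measured by ATAC-seq, in which the Tn5 transposase cuts open DNA, in hematopoietic stem cells (HSCs) sorted from the bone marrow of adult C57BL/6 mice as LSK CD150+CD34-CD48- cells, with 5000 cells per reaction. This gate is that of the labels, whereas the study's methods describe the ATAC-seq sort without CD34. The labels name 4 samples, 2 with the genotype WT(Med23floxp/flowp) and 2 with the genotype KO(Mx1-cre;Med23floxp/flowp), and 1 list of MACS2 peaks in mm10 coordinates per genotype. Both genotypes thus carried the floxed Med23 allele and differed in the Mx1-cre transgene, whose promoter is switched on by interferon throughout the blood system and in other organs, so that deletion is not restricted to stem cells. According to the methods, deletion was induced with poly(I:C). Whether the WT mice of these samples received it, and whether the reads of the replicates were pooled, is not given in the sources used here. Med23 encodes a subunit of Mediator, the complex that links transcription factors to RNA polymerase II.

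Of 37919 WT peaks and 37639 KO peaks, 39 and 41 belonged to the members. With 1 list per genotype there was no replicate check, so no test between genotypes was made. In a bulk preparation, fewer cells with an open promoter and less opening per cell cannot be told apart. The depth of each sample is unknown from the peak lists. The genome-wide background that the peak caller used, 1.19 reads in WT and 1.13 in KO, differed little. The Med23 start site had a peak in both lists, with 64 reads stacked at the summit in WT and 85 in KO. A promoter peak does not report on the excised exon and so checks no label. Of 6 stem cell markers, Kit, Mecom and Hlf had a promoter peak in both lists, and Slamf1 (which encodes CD150), Procr and Ly6a had none in either. Markers of other marrow cells were mostly without a peak. In WT and KO, respectively, peaks were found at 5 and 3 of 11 neutrophil and monocyte genes, 1 and 1 of 5 T cell genes, 2 and 2 of 6 erythroid genes, and 3 and 4 of 4 megakaryocyte genes. Elane, Mpo, Ly6g, Cd3e, Hba-a1 and Hbb-bs had none.

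As background, a cell prepares to divide by loading the MCM helicase ring on replication origins in G1, firing those origins in S phase and then activating cyclin B with CDK1 to enter mitosis. In resting cells the genes for these steps are held down by the DREAM complex, which contains an E2F protein with p130 and the MuvB core. E2F sites are typical of the genes that peak at G1/S, and the cell cycle genes homology region (CHR) of those that peak in G2/M, often near CCAAT boxes bound by NF-Y. Adult HSCs are mostly quiescent, which is why the state of these promoters was of interest.

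Promoter sequence around the RefSeq start site (GRCm38.p6, the assembly of mm10) was held for 33 of the 40 genes, in 35 windows. There was no entry for Mcm4, Gmnn, Gins2, Ccna2, Ccne2, Aurkb and Foxm1. The following stretches of 150 bases, from 120 before the start to 29 after it, are shown to contrast the E2F letters of helicase genes (Mcm6, Mcm3) with the CHR letters of mitosis genes (Ccnb2, Top2a, Kif11), beside a gene with both kinds (Mki67) and the genes with no peak in 1 or both lists (Mcm2, E2f2). Each is written 5′ to 3′ on the strand of the gene, and capitals mark matches to the E2F letters (TTCCCGC or TTCGCGC or TTGGCGC or TTGCCGC), the CHR letters TTTGAA and the letters CCAAT, on either strand, so that TTCAAA and ATTGG are CHR and CCAAT letters read from the opposite strand.
Mcm6, chr1:128359676-128359825, minus strand: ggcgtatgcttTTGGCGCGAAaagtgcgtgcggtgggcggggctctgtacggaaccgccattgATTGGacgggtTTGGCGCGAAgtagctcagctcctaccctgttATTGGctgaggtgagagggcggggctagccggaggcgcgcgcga
Mcm3, chr1:20820283-20820432, minus strand: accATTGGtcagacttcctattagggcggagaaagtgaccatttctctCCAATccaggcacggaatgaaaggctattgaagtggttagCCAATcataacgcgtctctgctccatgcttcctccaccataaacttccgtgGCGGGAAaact
Mcm2, chr6:88898751-88898900, minus strand: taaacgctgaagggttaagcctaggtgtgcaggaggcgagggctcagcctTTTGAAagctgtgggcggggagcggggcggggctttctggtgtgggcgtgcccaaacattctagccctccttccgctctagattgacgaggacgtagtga
Mki67, chr7:135716350-135716499, minus strand: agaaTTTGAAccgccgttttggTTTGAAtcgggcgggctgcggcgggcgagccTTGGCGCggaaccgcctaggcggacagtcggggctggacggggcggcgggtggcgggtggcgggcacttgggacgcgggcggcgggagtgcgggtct
Ccnb2, chr9:70421525-70421674, minus strand: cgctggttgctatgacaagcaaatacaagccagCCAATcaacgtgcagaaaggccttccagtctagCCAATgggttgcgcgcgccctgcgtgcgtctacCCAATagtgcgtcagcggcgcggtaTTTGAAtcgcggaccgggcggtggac
Top2a, chr11:99024160-99024309, minus strand: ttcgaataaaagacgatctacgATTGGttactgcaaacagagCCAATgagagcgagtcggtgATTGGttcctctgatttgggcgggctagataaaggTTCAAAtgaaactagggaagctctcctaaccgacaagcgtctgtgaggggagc
Kif11, chr19:37376262-37376411, plus strand: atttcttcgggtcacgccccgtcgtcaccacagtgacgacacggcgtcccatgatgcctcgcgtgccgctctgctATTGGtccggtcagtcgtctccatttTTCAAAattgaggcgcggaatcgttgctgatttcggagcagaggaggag
E2f2, chr4:136172154-136172303, plus strand: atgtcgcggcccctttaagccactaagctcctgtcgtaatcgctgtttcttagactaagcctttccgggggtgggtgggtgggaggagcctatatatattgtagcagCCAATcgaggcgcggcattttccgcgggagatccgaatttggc
The Mcm6 stretch held a pair of TTGGCGCGAA blocks, each with overlapping E2F matches on both strands (TTGGCGC on one and TTCGCGC on the other), beside CCAAT letters. The Ccnb2 stretch held a row of CCAAT matches upstream of CHR letters at the start site itself. The first E2f2 window showed CCAAT letters, as open promoters of the group did, but no peak. It also held E2F letters 40 to 46 bases after the start, beyond the printed stretch.

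Nearly all of these promoters were open in the sorted stem cells. A promoter peak was present for 38 of 40 members in the WT list (95%) and for 39 of 40 in the KO list (97.5%), against 61.1% and 60.8% of all 21755 protein-coding genes. Genes of the same processes outside the group were open at a like rate, 78 of 78 in WT and 76 of 78 in KO, as were cytosolic ribosomal protein genes, with 76 of 80 in each. Stem cell genes were open at 21 and 20 of 25, and genes of other tissues, such as Alb and Ins1, at 2 and 1 of 24. The state of these promoters in dividing cells was not measured, and an open promoter does not report on division. In a split chosen after values were seen, 22 members had a CpG-rich promoter (at least 55% GC and a ratio of observed to expected CpG of at least 0.6), of which 21 were open in the WT list, against 91.3% of all such genes. Of the 11 members whose promoter was not CpG-rich, 10 were open, against 39.6% of all such genes. Of the open ones, Cdc45, Ccnb2, Top2a, Bub1b and Cenpe missed the GC limit alone, with CpG ratios from 0.79 to 0.98. Mcm3, Mcm10, Rrm1, Tyms and Cenpa missed both limits. The class is thus not one of CpG-poor promoters alone, and the comparison was not matched for the CpG ratio.

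**Figure D1:**
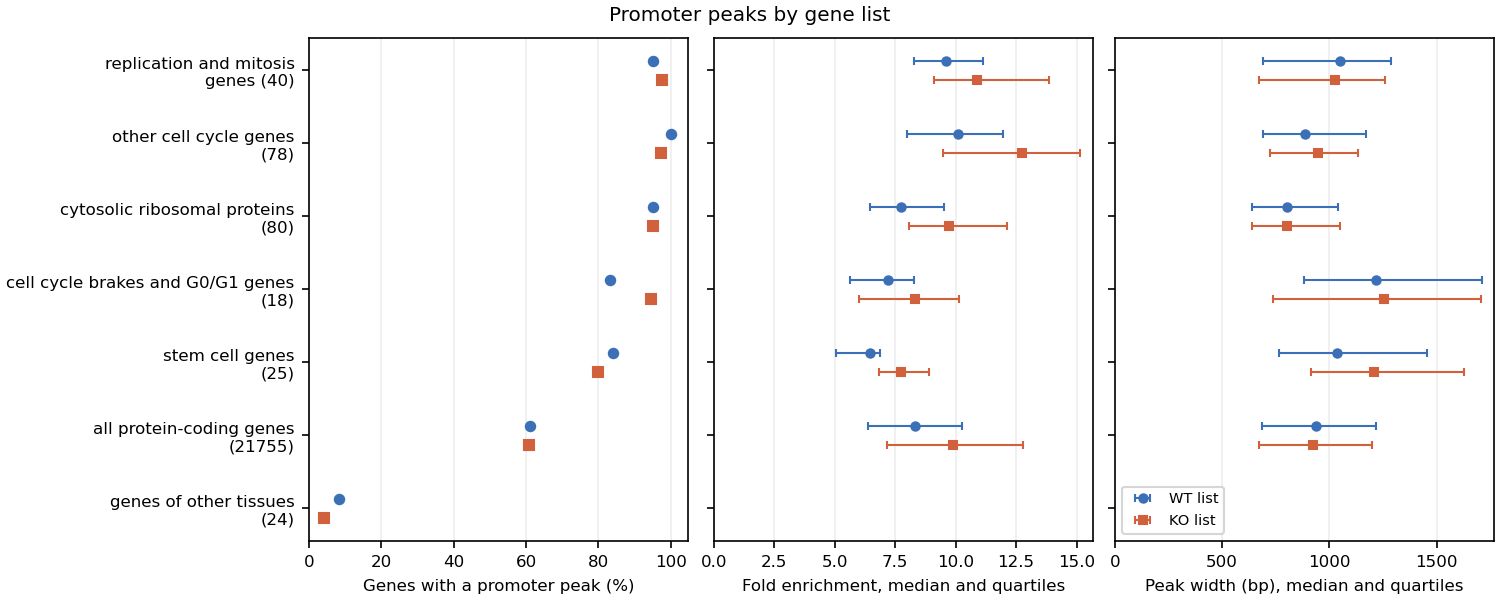
The share of genes with a promoter peak (left, %), the fold enrichment at the summit (middle) and the peak width (right, bp) are plotted by gene list, with circles for the WT list and squares for the KO list. Points in the middle and right panels are medians and bars run from the lower to the upper quartile over genes with a peak, which are not replicates; lists with fewer than 6 peaks are left out there. The 40 replication and mitosis genes lie at 95% and 97.5%, the genes of other tissues at 8.33% and 4.17%.

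The peaks had a somewhat higher median fold enrichment than those of a typical promoter. Fold enrichment, which is the caller's ratio of stacked reads to local background with 1 added to each, had a median of 9.61 over the 38 members with a WT peak and of 10.9 over the 39 with a KO peak, beside 8.33 and 9.88 over all protein-coding genes with a peak. The 95% interval of the median over members was 8.66 to 10.4 in WT, above the coding median. In KO it was 9.88 to 12.8, which reached the coding median. Of these members, 27 of 38 and 25 of 39 lay above the coding median of the list. The other cell cycle genes had medians of 10.1 and 12.7, and the stem cell genes had 6.45 and 7.74. Median reads at the summit were 45 and 39 for members and 44 and 45.5 for the other cell cycle genes. They were 31 and 36.5 for stem cell genes and 33 and 33 for all coding genes. Median width was 1048.5 bp in the WT list and 1028 bp in the KO list, beside 936 and 922 bp, and 21 of 38 and 24 of 39 members were wider than the coding median. The 95% intervals of the members' median widths, 775 to 1246 bp and 743 to 1143 bp, included the coding values. The values in one list tracked those in the other across the 38 members open in both, with Spearman's rho of 0.82 for fold enrichment, 0.71 for width and 0.93 for the reads at the summit. All coding genes open in both gave 0.84, 0.73 and 0.94, points within a list share its libraries and local base composition, and genes are not independent replicates.

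**Figure D2:**
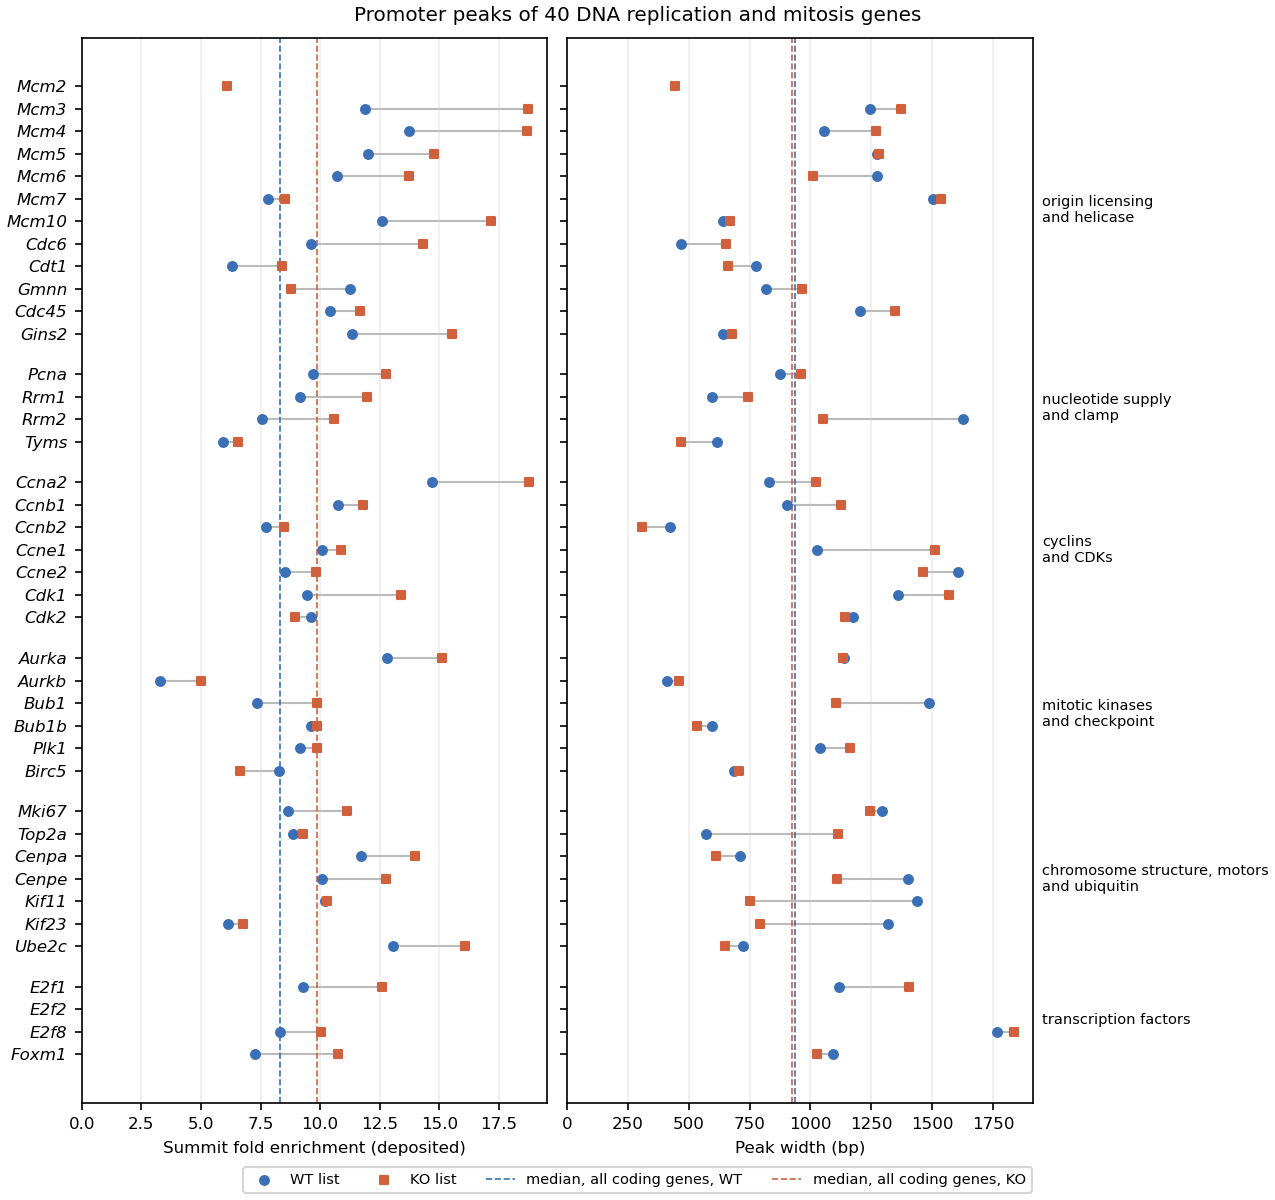
Fold enrichment (left) and width in bp (right) of the promoter peak of each of the 40 genes are plotted by role, with circles for the WT list, squares for the KO list, a grey line joining the pair and dashed lines at the medians of all protein-coding genes. Mcm2 has a KO value only and E2f2 has none, and fold enrichment is higher in the KO list for 35 of 38 genes, as it is for 82.3% of all coding genes.

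Origin licensing and helicase genes had the highest median fold enrichment of the roles, 11.3 over 11 open genes in the WT list and 14.0 over 12 in the KO list. Their median reads at the summit were 52 in WT, as for cyclins and CDKs and for transcription factors, and 60 in KO, the highest of the roles. Mcm2 to Mcm7 encode the subunits of the ring that unwinds DNA. Mcm4 stood highest of the role in the WT list, at 13.7 with 142 reads at the summit, and had 18.66 with 135 reads in the KO list. Its peak lies between Mcm4 and Prkdc, which starts on the opposite strand within 1 kb, so the signal cannot be given to either gene alone. Mcm3 was highest of the role in the KO list, at 18.72 with 104 reads, and had 11.9 with 75 reads in the WT list. Mcm5 reached 12 and 14.8 with 87 and 90 reads, and Mcm6 reached 10.7 and 13.7 with 64 and 60 reads. Mcm7, whose promoter faces Ap4m1, lay below the coding median in both lists, at 7.81 and 8.53, with 47 and 34 reads. Mcm3, Mcm4, Mcm5 and Mcm6 thus stood above the coding median in both lists, Mcm7 below it in both, and Mcm2 apart from the rest.

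Mcm2 was the only member with a promoter peak in a single list. In the KO list its peak (chr6:88898451-88898894, 444 bp) had a summit 30 bp inside the gene, 34 reads, a local background of 4.75 and a fold enrichment of 6.08. In the WT list the nearest summit lay 3461 bp from an Mcm2 start site, at the start of Tpra1. A peak in the KO list alone was found for 2.69% of all protein-coding genes, and in the WT list alone for 3.07%, so 1 such member of 40 is near the background. Among 3446 WT peaks with a local background within 1.2-fold of that value the smallest pileup was 12 reads and the median 48. The WT reads below the caller's threshold are not in a peak list, so the size of the difference is unknown.

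The loading factors were open in both lists. Cdt1, which brings the ring to origins, had the lowest WT value of the role, 6.30 with 21 reads, and 8.42 with 23 reads in the KO list. Cdc6, its partner in loading, gave 9.60 and 14.3. Mcm10 and Cdc45, which act when origins fire, gave 12.6 and 17.2 and 10.4 and 11.7, and Gins2, of the same active helicase, gave 11.3 and 15.5. Cdc45 shares its promoter with Ufd1, which starts on the opposite strand. Gmnn, which encodes geminin, the inhibitor of Cdt1, was the only gene of this role whose fold enrichment was lower in the KO list, with a fold enrichment of 11.3 and 42 reads in the WT list and of 8.78 and 26 reads in the KO list.

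The nucleotide supply and clamp genes had medians of 8.36 and 11.3 over 4 genes. Pcna, the sliding clamp of the replicative polymerases, was highest in the WT list, at 9.72 with 81 reads, and had 12.7 with 71 reads in the KO list. Tyms, which makes thymidylate, was lowest, at 5.92 with 12 reads and 6.57 with 15 reads. The ribonucleotide reductase subunits Rrm1 and Rrm2 gave 9.16 and 12, and 7.56 and 10.6. Rrm2 also had the widest peak of the role, 1628 bp in the WT list and 1051 bp in the KO list.

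Among the 7 cyclin and CDK genes the medians were 9.61 and 10.9. Ccna2, the cyclin of S phase and G2, had the highest fold enrichment of all 40 genes in both lists, 14.7 with 135 reads and 18.8 with 142 reads, above 99.7% of coding promoter peaks in WT and 99.1% in KO. Ccnb2, a mitotic cyclin, was lowest, at 7.75 with 16 reads and 8.47 with 17 reads, and its peak was the narrowest of any member in the KO list, 306 bp wide, against 423 bp in the WT list. Cdk1, the mitotic kinase, had 9.47 with 55 reads and 13.4 with 53 reads. It had a further WT peak (chr10:69351425-69351691) with 17 reads and a fold enrichment of 3.02, at -748 bp from another annotated start. The summit of Cdk2 lay 22 bp after a start in the WT list and 112 bp before one in the KO list, in a promoter shared with Pmel.

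The 6 mitotic kinase and checkpoint genes had the fewest reads, with a median of 23.5 in WT and 20 in KO. Aurka, the spindle pole kinase, reached 12.8 and 15.1 with 63 reads in each list, in a promoter that faces Cstf1. Aurkb, the kinase of the chromosomal passenger complex, had the weakest peak of the group, at 3.30 with 11 reads and 4.99 with 14 reads, above only 0.827% and 7.51% of coding promoter peaks. Birc5, which encodes survivin of the same complex, gave 8.27 and 6.64. Plk1, Bub1b and Bub1 lay between these, from 7.36 to 9.62 in the WT list.

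The 7 chromosome structure, motor and ubiquitin genes were all open in both lists, with medians of 10.1 and 11.1. Mki67, which encodes the proliferation antigen Ki-67 and is silent in resting cells, had a peak of 1292 bp with 38 reads and a fold enrichment of 8.66 in the WT list, and of 1246 bp with 39 reads and 11.1 in the KO list. Its summits lay 180 and 179 bp before the start. Ube2c, the ubiquitin-conjugating enzyme of the anaphase-promoting complex, was highest at 13.1 with 56 reads and 16.1 with 59 reads. Kif23, a motor of cytokinesis, was lowest at 6.15 with 21 reads and 6.74 with 17 reads. In the KO list it had 2 further peaks at internal start sites, with 12 and 9 reads. More than 1 promoter peak was thus found for 1 member in each list, against 7.23% and 7.32% of all coding genes. Top2a, the topoisomerase that untangles chromosomes, gave 8.84 and 9.28 with 28 and 25 reads.

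Of the transcription factors, E2f1 gave 9.29 and 12.6 with 52 and 51 reads, and E2f8, a repressor of the family, 8.31 and 10.1 with 87 and 77 reads. E2f8 had the widest peak of all members, 1767 and 1837 bp. Foxm1, an activator of G2/M genes that shares its promoter with Rhno1, was lowest of the open ones in the WT list, at 7.26 with 25 reads, and had 10.8 with 30 reads in the KO list, where E2f8 was lower. E2f2 had no promoter peak in either list. The nearest peaks lay inside the gene, at chr4:136177430-136178818 with 37 reads in the WT list and chr4:136177580-136178780 with 23 reads in the KO list, with summits 2963 and 2801 bp from a start site.

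The summits sat mostly upstream of the start. The median position over members was 87 bp before the start in the WT list, a signed offset of -87 bp, and -74 bp in the KO list, beside -25 and -27 bp for all coding genes. Of the 38 members open in both, the summit was upstream in 31 (81.6%) of the WT peaks and 34 (89.5%) of the KO peaks, against 64.2% and 64.9% of coding genes. Between the lists the summit moved by a median of 19.5 bp, against 43 bp, and by at most 50 bp in 28 of 38 members (73.7%), against 54.6%. Mcm4, Mcm10, Rrm2, Ccna2, Ccnb2 and Cenpe had summits at the same base in both lists.

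The letters of cell cycle promoters were common in the group and differed between the replication and the mitosis roles. Within 250 bases before to 50 after the start, E2F letters were present in 15 of 35 windows (42.9%), against 12.2% of 21045 windows of all protein-coding genes and 16.3% of those of genes with a WT promoter peak. CHR letters were present in 15 of 35 (42.9%), against 15.6% and 11.9%, and CCAAT letters in 29 of 35 (82.9%), against 38.5% and 37.3%. GC boxes, the letters GGGCGG, were also found in 29 of 35, against 46.7% and 61.8%. E2F letters lay in 9 of 14 windows of the replication roles and in 1 of 12 of the mitosis roles (kinases, checkpoint, chromosome structure, motors and ubiquitin), whereas CHR letters lay in 2 of 14 and 9 of 12. The remaining roles showed no such division. Cyclin and CDK windows held E2F letters in 3 of 5 and CHR letters in 2 of 5, and transcription factor windows held each in 2 of 4. From 100 bases before to 50 after the start, E2F letters lay in 5 of 14 and 1 of 12 and CHR letters in 2 of 14 and 9 of 12. In the wider window the other cell cycle genes carried both kinds about as often as the members. They had E2F letters in 34 of 77 windows (44.2%) and CHR letters in 31 of 77 (40.3%), but CCAAT letters in only 39 of 77 (50.6%). In the narrower window E2F letters lay in 32 of 77 (41.6%), against 8 of 35 for members (22.9%). CHR letters lay there in 23 of 77 (29.9%), against 15 of 35 (42.9%). In 3 windows an E2F match overlapped a CCAAT or GC box match.

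The spaced pair of GCG, then 5 bases, then TTTGAA, known as a CDE with a CHR, was present in Ccnb2, Cdk1 and Plk1, 3 of 35 windows (8.57%), against 0.166% of all coding windows and 0 of 77 windows of the other cell cycle genes, where the 95% Wilson interval reached 4.75%. All matches of this pair contain a CHR match. Cdk1, Mki67 and E2f8 held both E2F and CHR letters in 1 window. Mcm10, Pcna, Tyms, Ccne1, Bub1, Birc5, Cenpe and E2f1 held neither. CCAAT matches lay closest to the summits, at a median of 49 bp in either list, and E2F matches lay 120.5 and 124.5 bp away. A match is a run of letters and not evidence of binding, and a missing match says only that these letters are not in the window.

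**Figure D3:**
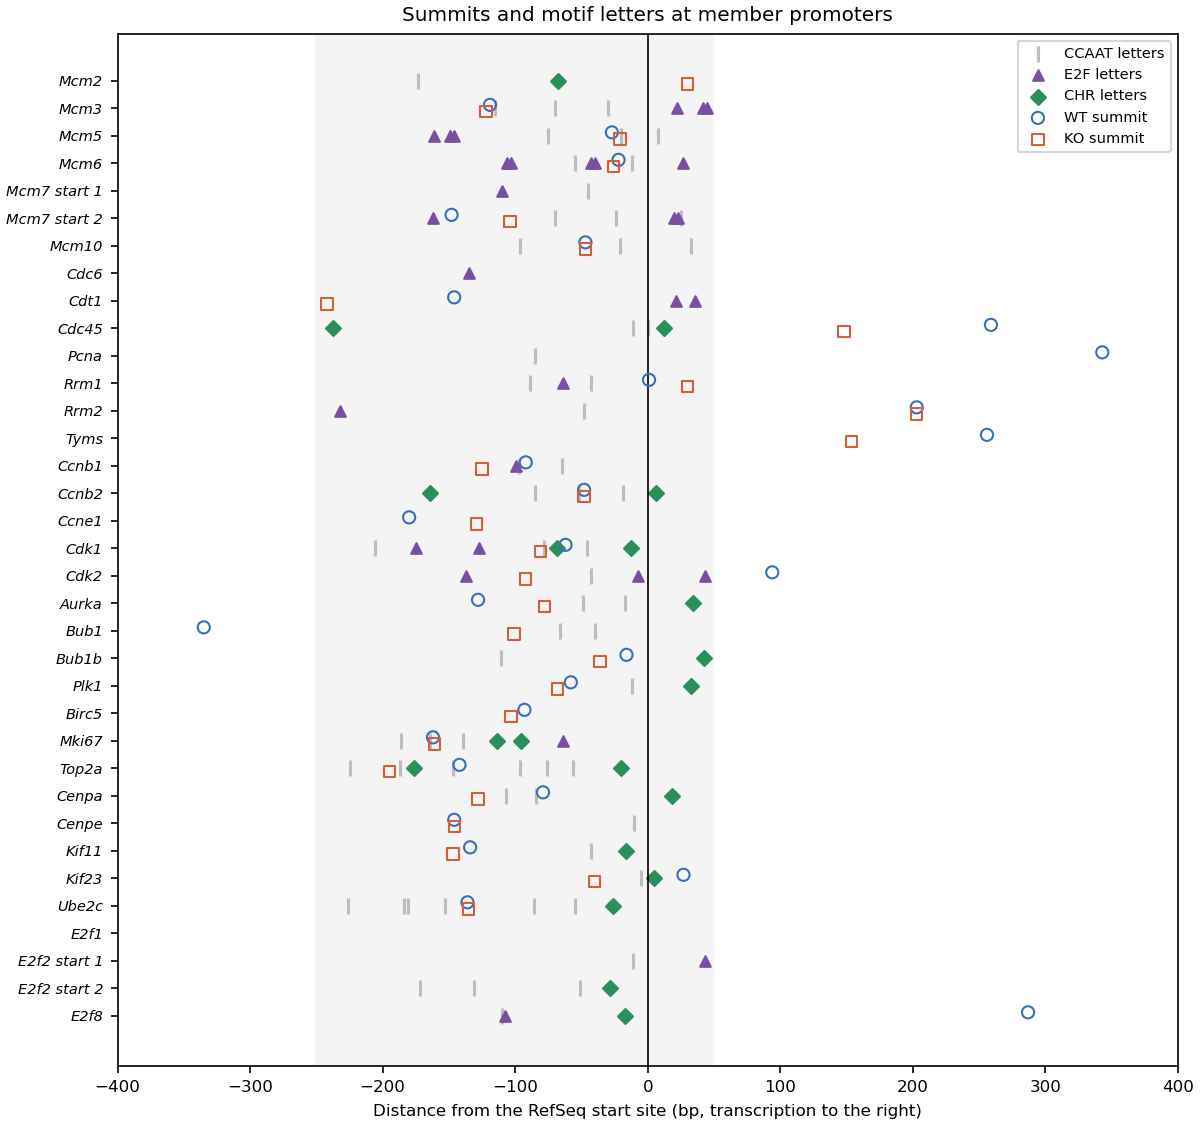
Each line is a promoter window of a member, plotted by distance from the RefSeq start (bp, transcription to the right, 0 at the start), with triangles for E2F letters, diamonds for CHR letters, grey ticks for CCAAT letters, and open circles and squares for the WT and KO summits. The shaded band is the window searched, and summits over 400 bp from the start are not drawn. E2F letters are more frequent in the upper, replication lines and CHR letters in the mitosis lines below, with exceptions in both, and CCAAT ticks lie beside many summits.

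At most member promoters the summit reads of both lists differed by no more than counting error allows. The KO to WT ratio of summit reads, each divided by the genome background of its list, could be formed for 38 members. Its median was 0.07 on the log2 scale, beside 0.09 for 12214 coding promoters, and it was above 0 in 23 of 38 members, against 62.2%. By role the median log2 ratio was 0.22 for licensing and helicase, 0.38 for nucleotide supply and clamp, -0.18 for cyclins and CDKs, 0.04 for mitotic kinases and checkpoint, 0.03 for chromosome structure, motors and ubiquitin, and 0.06 for transcription factors, with 11, 4, 7, 6, 7 and 3 ratios. Each role spanned values on both sides of 0.

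Past a 1.5-fold difference lay 1 of 38 members, against 10.4% of coding promoters (7.3% higher and 3.08% lower in the KO list). This was Gmnn, with a log2 ratio of -0.61 and an exact binomial 95% interval of -1.37 to 0.13, which covers counting error only and includes 0. The interval left out the coding median for 1 member, against 3.77% (2.73% higher and 1.04% lower). This was Mcm3, at 0.56 (0.12 to 1.01), with 75 reads in WT and 104 in KO. For the remaining 37 members the interval included the coding median. Intervals were wide, from about that of Ccna2 (-0.19 to 0.51, over 100 reads in each list) to that of Aurkb (-0.81 to 1.72), so a difference of 1.5-fold in either direction was not detectable at the weaker peaks. Of the 78 other cell cycle genes, 75 gave a ratio, with a median of 0.16 and 56 above 0. Past 1.5-fold lay 3 of 75, against 10.4% of coding promoters. These were Prc1 (0.85) and Lin37 (0.75), higher in the KO list, and Chaf1b (-0.61), lower. The interval left out the coding median for Prc1 alone (0.27 to 1.45). Rfc2 and Tk1, 2 of 78, had a promoter peak in the WT list alone, against 3.07% of all coding genes.

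**Figure D4:**
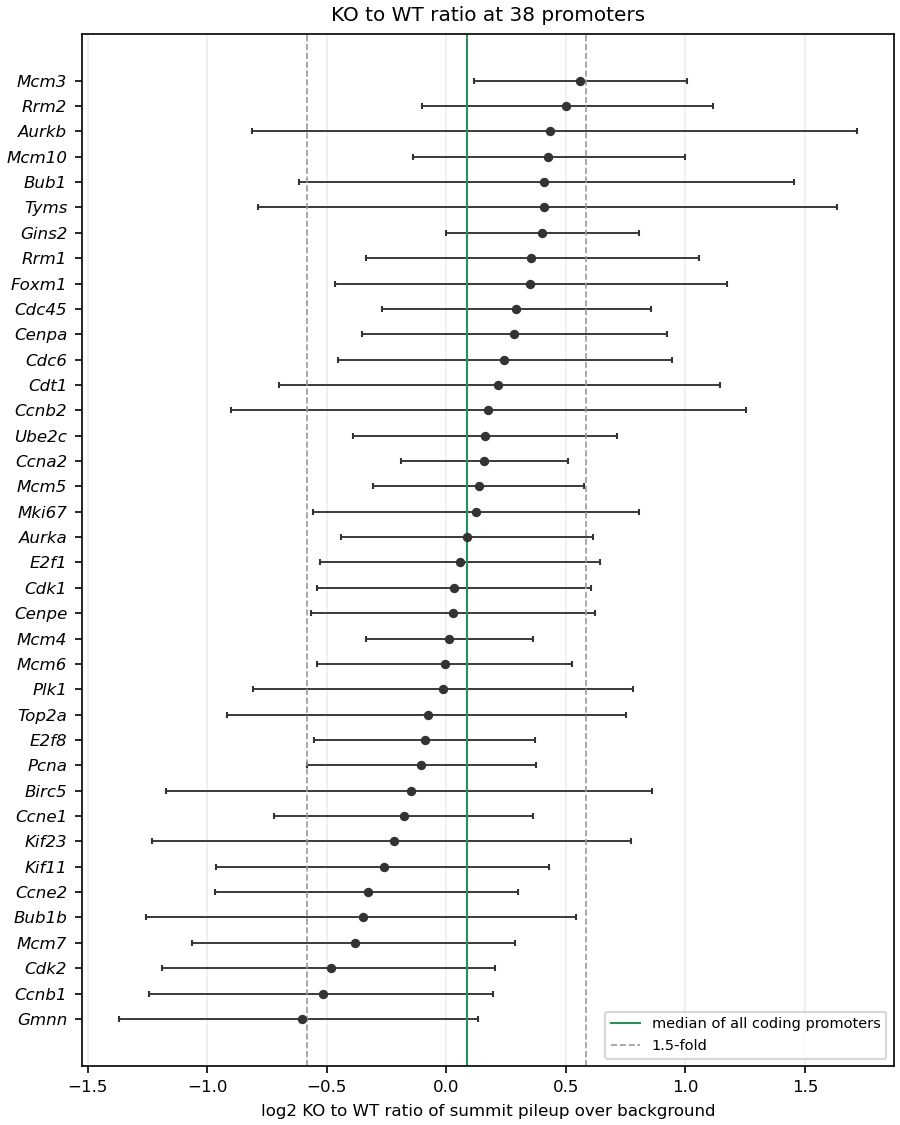
The log2 ratio of KO to WT summit reads over background is plotted for the 38 members open in both lists, ordered by value, with bars for the exact binomial 95% interval of counting error. The solid line is the median of all coding promoters (0.09) and the dashed lines mark 1.5-fold. Gmnn at -0.61 is the one point past a dashed line, and Mcm3 at 0.56 is the one whose bar does not reach the solid line.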

How the data were processed

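ATAC-seq reads of 4 samples (2 per genotype) had been trimmed with Trim Galore, aligned to mm10 with Bowtie2, freed of duplicate and mitochondrial reads and used for peak calling with MACS2 without model building. Versions are not given in the sources used here. The authors deposited 1 narrowPeak list and 1 summit list per genotype. Per the file headers and values, the columns hold a fold enrichment (a ratio), −log10 p and q values, an integer score and the offset of the summit. The deposited score and summit lists repeat these columns and gave no further value.

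Summit pileups were recovered from the fold enrichment and −log10 p as the whole number that matched both within 0.001, which succeeded for 99.99% of peaks in each list, and the genome background is the median local background of the 1000 peaks lowest in it. Where a gene had several promoter peaks, that of highest fold enrichment was used. Peaks on chromosomes 1 to 19 and X entered. Intervals are exact binomial for ratios, Wilson for shares and taken from ranked values for medians over genes, all at 95%. The recovery of pileups and ratios was tested on data simulated under the same assumed caller model and Poisson counts, so that test does not check these assumptions. Python 3.11.15, pandas 2.3.3 and scipy 1.17.1 were used.

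The members and all gene lists were chosen with earlier results of these data known. Named were the highest and lowest WT fold enrichment of each role, members missing or repeated in a list, those past 1.5-fold or with an interval off the coding median, Mki67 and the MCM ring genes. Other genes named were chosen after their values were seen. Alternatives changed the summit distance, start sites, q minimum, overlap rule, peak choice, scaling, fold and motif window. The authors' read counts over merged peaks were not analysed here.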

Additional observations from a re-analysis of the deposited data

How the results depend on the processing

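Of 77 values recomputed under alternatives, 68 stayed within the interval, or within 1.5 times the count, of the value reported. Open shares, fold enrichments and widths did so under every alternative run for them, also when the 6 members whose peak serves an opposite coding start were left out, an alternative added after seeing the data. That step put the median WT width of members (887.5 bp) below the coding 936 bp. Staying within the interval concerns the members' own value and not their distance from all coding promoters. With a minimum −log10 q of 10, median fold enrichments of members were 9.62 (95% interval 8.84 to 10.7) in WT and 11.7 (10.1 to 13.4) in KO. The coding medians, 9.18 and 11.0, lay inside these intervals.

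The count of members past 1.5-fold was 2 of 38 (Gmnn and Ccnb1) with raw pileups and with ratios relative to the coding median, against 10.75% of coding promoters. It was 2 of 38 (Mcm3 and Aurkb) with deposited fold enrichments, against 11.9%, and 0 of 38 at 2-fold, where 1.05% of coding promoters lay. Deposited fold enrichments gave a median log2 ratio of 0.30 for members and 0.28 for all coding promoters, and the shift is thus shared. With raw pileups 18 of 38 members were above 0, as were 6069 of 12214 coding promoters. In windows from 100 before to 50 after the start, E2F letters were in 22.9% (coding 7.22%) and GC boxes in 62.9% (38.7%). Within 200 bp centred on the WT summit, CHR letters were in 21.1% (coding peaks 5.30%) and GC boxes in 63.2% (58.6%).

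No paired analysis was possible because only 1 peak list stands for the samples of a genotype, and leaving out a replicate was not run for that reason. Depth limits the weaker peaks, since summits with under 20 reads carry intervals of over 2 log2 units.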

Other observations

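Cell cycle brakes and G0/G1 genes, a list that includes the D cyclins, which drive entry into the cycle, had lower median fold enrichments at their promoter peaks than the replication and mitosis genes. Of 18 such genes, 15 had a promoter peak in WT and 17 in KO, with median widths of 1218 and 1256 bp and median fold enrichments of 7.18 and 8.32. The quartiles of width overlapped those of the replication and mitosis genes in both lists. In fold enrichment, 3 of 15 WT and 5 of 17 KO peaks lay above the coding median. The median reads at the summit went the other way, with 59 in WT and 59 in KO. The replication and mitosis genes had 45 and 39. Fold enrichment is relative to local background, so it does not rank these promoters by reads. Cdkn1b, which encodes the CDK inhibitor p27, had 89 and 82 reads at the summit, and Btg1, an antiproliferative gene, had 121 and 138. Rbl2, which encodes the p130 subunit of DREAM, had 70 and 59 reads.

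Cdkn1a, which encodes p21, and the cyclin gene Ccnd1 had a promoter peak in the KO list alone, with 10 and 20 reads at the best summit. The genome-wide share of such genes is 2.69%. Foxo3 had none in either list. Cdkn1c, which encodes p57 and is typical of quiescent stem cells, had 16 and 18 reads and fold enrichments of 4.11 and 6.02. Past 1.5-fold lay 1 of the 15 genes of this list with a ratio, against 10.4% of coding promoters (3.08% lower in the KO list). This was Rb1, with a log2 ratio of -0.65 (exact binomial 95% interval -1.58 to 0.24, counting error only). These genes were chosen after earlier results were known, and no test between the lists was possible with 1 list per genotype.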
